A study of Homo sapiens with 6 samples.

Results

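The data described here are the 2 libraries of NOMO-1 cells, 1 with a scrambled control and 1 with NCAM1 knocked down. All genes with a normalized read count of 100 or more in at least 1 of the 2 libraries were taken, 13278 of the 34114 genes in the table, and 11448 of them code for proteins. NOMO-1 is an acute myeloid leukemia cell line with monocytic features that carries a KMT2A-MLLT3 fusion. The cells had been transfected with a scrambled short hairpin RNA (shRNA) or with an shRNA against NCAM1, and RNA was taken at 72 h. The same design was applied to MOLM-14, a line with the same kind of fusion, and to SKM-1, a line from leukemia that followed a myelodysplastic syndrome, with 1 library per line and condition, 6 libraries in all. The sources used here do not say whether each line received the same hairpin. With 1 library per condition there is no replicate check, so no test was run. Every ratio below compares 2 libraries, not 2 conditions, and every interval is an exact 95% interval that covers counting error only.

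NCAM1 (neural cell adhesion molecule 1, CD56) is a surface glycoprotein of the immunoglobulin superfamily that binds other NCAM1 molecules on neighbouring cells. It can carry polysialic acid chains, which loosen adhesion, and it can signal through fibroblast growth factor receptors and the kinase FYN toward the MAP kinase pathway. In blood it marks natural killer cells, and it also appears on a part of acute myeloid leukemias, often those with monocytic features.

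The libraries held 45542099 reads assigned to genes in the control and 45360397 in the knockdown, and the 13 mitochondrially encoded protein genes took 7.49% and 7.86% of them. Of 12 monocytic myeloid markers 9 passed the minimum, with a summed normalized count of 41097 in the control and 39203 in the knockdown library. LYZ, ITGAM, CD33, SPI1 and CST3 were well above it, whereas CD14 stood at 8.5 and 27.4, CD68 at 10.4 and 4.56, and CEBPA at 19.8 and 33.8. The homeobox genes typical of KMT2A fusions (HOXA9, HOXA10, MEIS1 and PBX3) summed to 9227 and 11556. Markers of other lineages were present too: the 9 T and NK cell markers in the table summed to 6080 and 4419, mostly CD3D, the 6 B cell markers to 566 and 2291, the 5 mast cell and basophil markers to 388 and 122, and the 4 megakaryocyte markers to 987 and 565. The 3 erythroid markers in the table summed to 735 and 488, mostly EPOR at 715 and 487, and HBB had no read in either library. The 8 epithelial and stromal markers in the table summed to 2691 and 3635, mostly KRT8 (1913 and 2961) and KRT18 (673 and 583). The 4 endothelial markers summed to 37.8 and 2.74. In such bulk RNA, fewer cells of a type and less RNA per cell cannot be told apart.

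The target of the shRNA was lower in the knockdown library. NCAM1 had a normalized read count of 1163 in the control and 312 in the knockdown, from 1231 and 342 reads, which is 3.73-fold lower (interval 3.3 to 4.21). Its transcript was still detected in the knockdown library. On the log2(normalized count + 1) scale used for every log2 ratio below, the knockdown over control ratio of NCAM1 was -1.89. Of 21 genes listed as NCAM1 itself, its binding partners, modifiers and signalling mediators, 11 passed the minimum, and 10 of these were lower in the knockdown library, 3 of them, NCAM1 included, at least 2-fold, beside 5.66% of all genes. The median of the 11 was -0.28, and it was -0.027 with no minimum. Among members under the minimum, NRCAM stood at 3.78 in the control and 15.5 in the knockdown, GFRA2 at 8.5 and 34.7, and PTK2 at 15.1 and 46.5. L1CAM, a related adhesion molecule, stood at 325 in the control and 85.8 in the knockdown (log2 ratio -1.91). SPTBN1, the beta spectrin that links NCAM1 to the membrane skeleton, stood at 16854 and 6130 (-1.46), and its partner SPTAN1 at 11951 and 6769 (-0.82). ST8SIA4, the enzyme that adds polysialic acid, stood at 3638 and 2012 (-0.85). The signalling partners differed less, with FGFR2 at 386 and 375 (-0.043), FYN at 2027 and 1757 (-0.21), and FGFR1 at 462 and 611 (0.40), the 1 member that was higher. NCAM2, the paralog of NCAM1, stayed under the minimum, at 1.89 and 14.6.

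Most genes differed little between the libraries, and the larger differences were mostly toward lower counts in the knockdown. The median log2 ratio of the 13278 genes was -0.00014, the lower and upper quartiles were -0.34 and 0.28, and 10260 genes (77.3%) differed by less than 1.5-fold. In the knockdown library 273 genes (2.06%) were at least 2-fold higher and 751 (5.66%) at least 2-fold lower, and these 2 shares are the background against which the counts of gene groups below are read. At least 4-fold, 45 genes (0.339%) were higher and 115 (0.866%) lower. The counting interval lay wholly past 2-fold for 158 of the higher and 513 of the lower genes. Its median width to each side was 0.11 on the log2 scale, and 0.37 for genes whose higher count was under 200. At the edge of the selection, FDPSP1, a pseudogene, had counts of 100 and 30.1 (log2 ratio -1.70) and was just inside, and RP11-452J6.2 had counts of 16.1 and 99.4 (2.56) and was just outside.

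**Figure D1:**
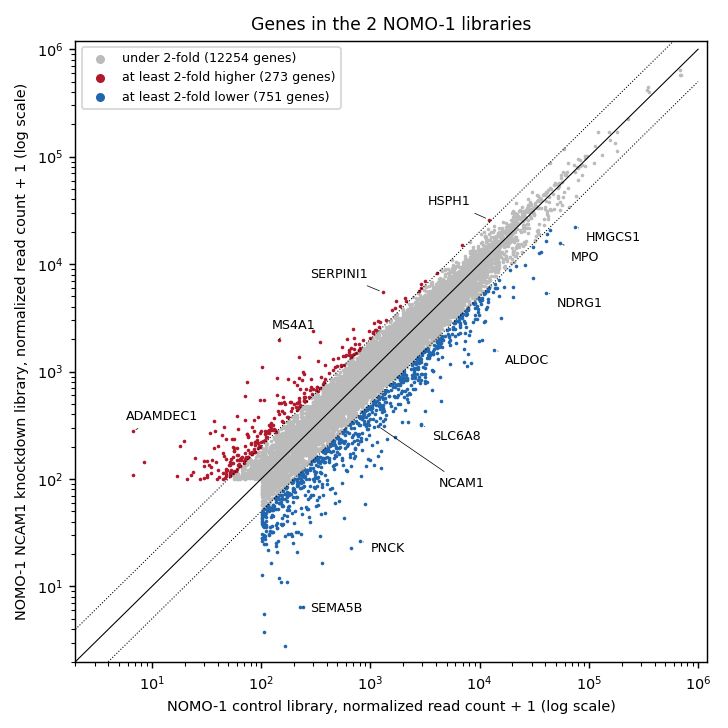
Normalized read count + 1 of each of the 13278 genes in the NOMO-1 control library (horizontal log axis) and in the NCAM1 knockdown library (vertical log axis). The solid line marks equal counts and the dotted lines 2-fold differences; 273 genes lie above the upper dotted line (red) and 751 below the lower one (blue), and NCAM1 is among the latter.

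The gap between the directions was not the same at every expression level. Among the 1708 genes with a mean count under 200, 7.67% were at least 2-fold higher and 12.8% lower. Among the 1789 genes with a mean of 5000 or more, 0.224% were higher (4 genes) and 4.19% lower (75 genes). The 4 abundant genes on the higher side were HSPH1, ODC1, MYO6 and REEP3, and the lower side held enzymes of sterol and sugar metabolism described below.

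The genes with the highest ratios were mostly low in the control library, which the selection favours. Most of the 15 highest protein-coding genes were under 100 there and passed the minimum only through the knockdown library. ADAMDEC1, a metalloproteinase-like protein of macrophages and dendritic cells, stood at 5.67 in the control and 278 in the knockdown library, 49.1-fold higher (interval 22.3 to 135). MS4A1, which encodes CD20 and is best known from B cells, stood at 144 and 1988, 13.8-fold higher (11.7 to 16.4). It made up most of the B cell marker sum in the knockdown library, where PAX5 stood at 0 against 3.78 in the control, and CD79A and CD79B near equal in both; the part of B cell markers in this result was not tested. ADAM28, a relative of ADAMDEC1, stood at 296 and 2388, 8.08-fold higher (7.18 to 9.11).

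Several of the other genes at the upper end belong to myeloid recognition. CLEC7A (dectin-1), the receptor for fungal beta-glucan, stood at 73.7 in the control and 791 in the knockdown (log2 ratio 3.41). CD36, a scavenger receptor for oxidized lipoproteins and fatty acids, stood at 58.6 and 389 (2.71), and EMR3 (now ADGRE3), an adhesion receptor of myeloid cells, at 23.6 and 156 (2.67). ZNF366, a transcriptional regulator known from dendritic cells, stood at 35.9 and 349 (3.24). The remaining 8 of the 15 highest protein-coding genes were of mixed kinds. They were the immune GTPase GIMAP4 (7.56 and 142), SRPX (5.67 and 107), the peroxisomal fatty acid transporter ABCD2 (18.9 and 223), SYTL4 (17 and 201), a vesicle-docking protein, the metallothionein MT1H (100 and 1091), the folate enzyme ALDH1L1 (70.8 and 594), the orphan receptor GPR82 (33.1 and 265), and GABRA3 (44.4 and 305), a subunit of the GABA receptor.

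The 15 lowest protein-coding genes were of mixed kinds. SEMA5B, a guidance protein of the semaphorin family, stood at 225 in the control and 5.47 in the knockdown library, 41.1-fold lower (18.6 to 113). PNCK, a calmodulin-dependent kinase, stood at 797 and 25.5, 31.2-fold lower (21.4 to 47.3). POU2AF1, a B cell coactivator, stood at 105 and 2.74, the latter from 3 reads, 38.3-fold lower (12.8 to 189). ARG1, the arginase of myeloid cells, stood at 363 and 15.5 (log2 ratio -4.46), and HCAR2, a receptor for niacin and ketone bodies, at 170 and 10 (-3.95). INHBA, the subunit of activin A, stood at 899 and 57.5 (-3.94), and STC1, the hormone stanniocalcin, at 570 and 42 (-3.73). SLC6A8, which imports creatine, stood at 2907 and 316 (-3.20), DEFB1, an antimicrobial beta-defensin, at 2919 and 322 (-3.18), and CR1, the complement receptor CD35, at 4442 and 528 (-3.07). The other members of the 15 lowest were PAEP, MYO7B, ZFR2, SYNPO2 and ALDOC, with log2 ratios between -3.79 and -3.10.

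**Figure D2:**
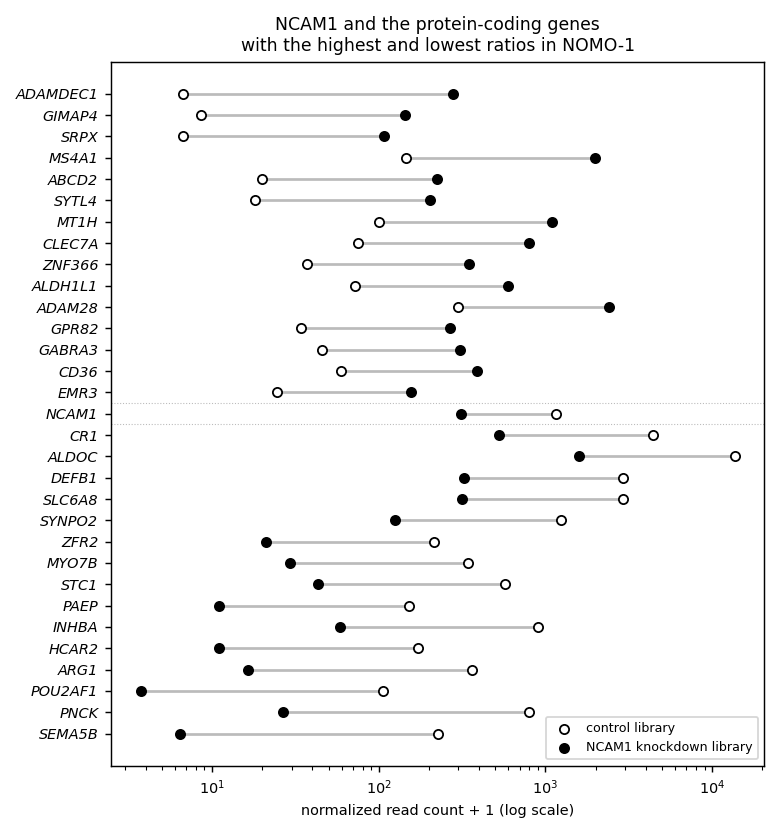
Normalized read count + 1 (log axis) in the control (open) and NCAM1 knockdown (filled) NOMO-1 library, for the 15 protein-coding genes with the highest ratio, NCAM1, and the 15 with the lowest. ADAMDEC1 goes from 5.67 to 278 at the top and SEMA5B from 225 to 5.47 at the bottom. Most upper genes are under 100 in the control library and passed the minimum only through the knockdown library.

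Ranked by the difference in count among genes at least 2-fold apart, which favours long and abundant transcripts, other genes led. HMGCS1, which makes the precursor of mevalonate, stood at 74621 in the control and 22251 in the knockdown library, 3.35-fold lower (3.31 to 3.4). MPO, the myeloperoxidase of primary granules, stood at 53986 and 15869, 3.4-fold lower (3.34 to 3.46). NDRG1, a stress-responsive gene of hypoxic cells, stood at 40431 and 5437, 7.44-fold lower (7.24 to 7.64). SCD, the desaturase that makes oleic acid, stood at 40199 and 16365 (log2 ratio -1.30), CSF3R, the receptor for granulocyte colony-stimulating factor, at 36193 and 12997 (-1.48), and FAM101B (now RFLNB) at 30916 and 7377 (-2.07). In the other direction stood HSPH1, a co-chaperone of HSP70, at 12187 and 25937, 2.13-fold higher (2.08 to 2.17), and ODC1, the first enzyme of polyamine synthesis, at 6861 and 15006, 2.19-fold higher (2.13 to 2.25). They were followed by SERPINI1 (neuroserpin) at 1298 and 5479 (2.08), REEP3 at 4071 and 8192 (1.01), the motor protein MYO6 at 3152 and 6917 (1.13), and SRPRB, a subunit of the signal recognition particle receptor, at 2935 and 6526 (1.15).

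Beyond single genes, 37 lists of pathways and cell functions held 531 distinct genes above the minimum. The median log2 ratio was at or below -0.5 in 12 lists and at or above 0.5 in 2, beside -0.00014 over all genes. The lists at the lower end were those of sterol and fatty acid synthesis, LXR, glycolysis, hypoxia, MAP kinase, immediate early, NF-kB, chemokine, JAK-STAT, primary granule and myeloid transcription factor genes, and those at the upper end were metallothioneins and heat shock chaperones. Some genes stand in more than 1 list.

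**Figure D3:**
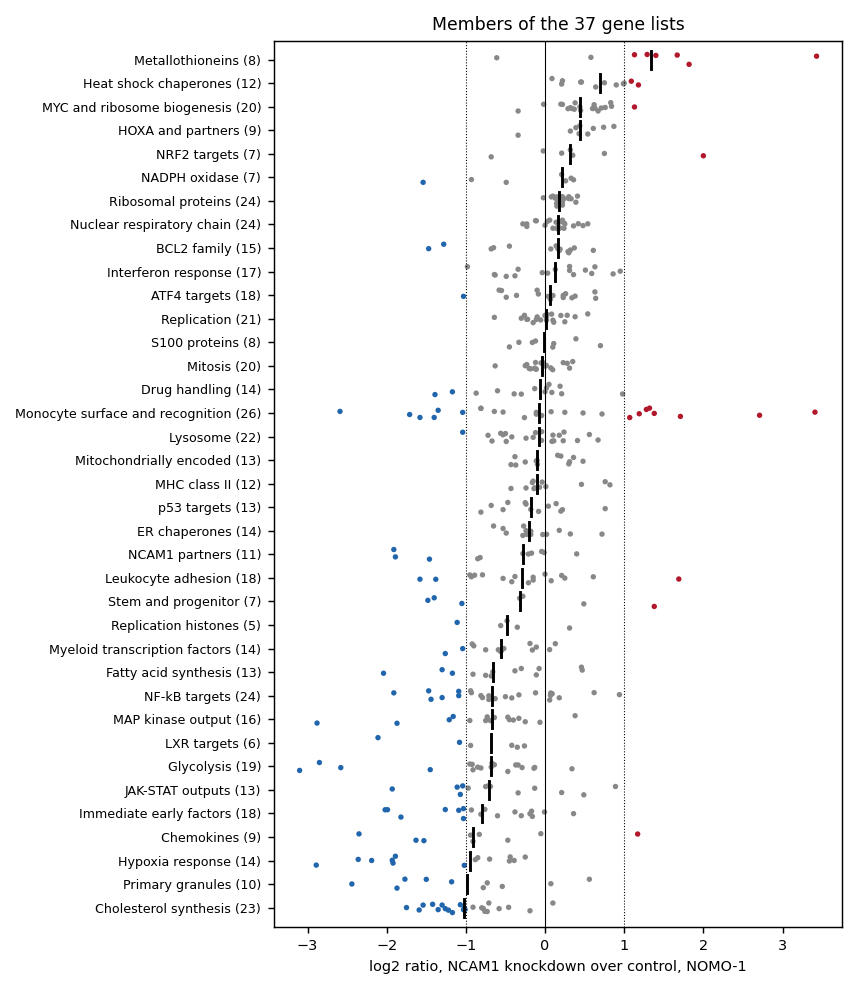
Log2 ratio of knockdown over control in NOMO-1 (horizontal axis) for each member of the 37 gene lists (rows, with the number of members above the minimum), with the list median as a black bar and members at least 2-fold apart in red or blue. Medians run from -1.02 for cholesterol synthesis to 1.34 for metallothioneins.

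Genes of cholesterol synthesis and uptake were lower nearly throughout. Cells make cholesterol from acetyl-CoA by way of mevalonate and squalene, and the transcription factor SREBF2 raises the enzymes and sterol uptake when sterols run low. Of the 23 genes of this list that were above the minimum, 22 were lower in the knockdown library and 13 were at least 2-fold lower, beside 5.66% of all genes, with a median log2 ratio of -1.02. In the mevalonate part of the pathway, MVD stood at 6637 in the control and 2603 in the knockdown (log2 ratio -1.35) and FDPS, the farnesyl diphosphate synthase, at 8999 and 3356 (-1.42). In the sterol part, DHCR7, which makes cholesterol itself, stood at 13287 and 5554 (-1.26) and CYP51A1, the lanosterol demethylase, at 1837 and 744 (-1.30). STARD4, a sterol carrier, was among the lowest, at 15070 and 5020 (-1.59). SREBF2 itself stood at 22230 and 12742 (-0.80). The exception was PMVK, a mevalonate pathway kinase, at 817 and 875 (0.099).

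Fatty acid synthesis and the LXR genes, which respond to a surplus of sterols, were lower as well. Of 13 fatty acid genes 11 were lower, 3 of them at least 2-fold, with a median of -0.66. ACSS2, which activates acetate to acetyl-CoA, stood at 20348 in the control and 4950 in the knockdown (log2 ratio -2.04), and FADS2, a desaturase of polyunsaturated fatty acids, at 21461 and 9568 (-1.17). FASN, the fatty acid synthase, stood at 42079 and 26255 (-0.68), and SREBF1, the factor named for this branch, at 7694 and 5925 (-0.38). The NADPH-making enzyme ME1 and the acyltransferase GPAM were the members on the other side (0.46 and 0.47). All 6 LXR genes above the minimum were lower, with a median of -0.68, which was -0.42 with a minimum of 500 counts. ABCA1, which exports cholesterol, stood at 1344 and 311 (-2.11), and NR1H3, the LXR alpha receptor, at 255 and 120 (-1.08). Genes of sterol supply and genes of sterol export thus stood on the same side.

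Glycolysis and hypoxia genes were lower together. In low oxygen the factor HIF1A raises glucose transporters, glycolytic enzymes and genes of adaptation, and many of these also serve rapidly growing cells in normal oxygen. Of 19 glycolysis genes 18 were lower, 4 of them 2-fold or more, and the list median was -0.68. Those 4 were the transporter SLC2A3 (GLUT3), at 7264 in the control and 1216 in the knockdown (log2 ratio -2.58), GPI, the glucose phosphate isomerase, at 34620 and 12714 (-1.45), and the tissue-restricted isozymes ALDOC, at 13644 and 1592 (-3.10), and ENO2, at 3138 and 433 (-2.85). The widely used isozymes differed less: ALDOA stood at 77071 and 42835 (-0.85), ENO1 at 180748 and 113145 (-0.68) and GAPDH at 39980 and 32651 (-0.29). PFKM, a subunit of phosphofructokinase, was the 1 member that was higher, at 2376 and 3014 (0.34).

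All 14 hypoxia genes above the minimum were lower, 7 of them at least 2-fold, with a median of -0.95. After NDRG1 came ADM, the vasodilator peptide adrenomedullin, at 668 in the control and 130 in the knockdown (log2 ratio -2.36), and MXI1, an antagonist of MYC, at 5365 and 1174 (-2.19). EGLN3, one of the oxygen sensors that mark HIF1A for destruction, stood at 975 and 255 (-1.93), P4HA1, a collagen prolyl hydroxylase, at 10918 and 2879 (-1.92), and BNIP3, which starts removal of mitochondria, at 3768 and 1014 (-1.89). HIF1A differed less, at 3270 and 2492 (-0.39), as did VEGFA, at 5324 and 2962 (-0.85). CA9, a carbonic anhydrase often used as a marker of hypoxia, was under the minimum, at 76.5 and 0.912.

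The DNA before the start of 2 of these genes is shown because HIF binds the core ACGTG, the letters of the hypoxia response element. Promoters were taken from RefSeq as 250 bases before to 50 after each start (GRCh38.p14), and 9713 of the 13278 genes (73.2%) had an entry, with 14238 windows in all. The 250 bases before the start follow, 5′ to 3′ on the gene's strand, with each ACGTG on either strand in capitals; where it forms CACGTG, the letters of an E-box, both strands match at once.
ALDOC, chr17:28576896-28577145, minus strand: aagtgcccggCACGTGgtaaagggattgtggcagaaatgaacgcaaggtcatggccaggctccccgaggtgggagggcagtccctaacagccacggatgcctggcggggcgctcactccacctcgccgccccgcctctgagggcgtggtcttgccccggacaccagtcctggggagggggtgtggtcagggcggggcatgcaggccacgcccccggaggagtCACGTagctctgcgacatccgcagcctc
BNIP3, chr10:131981924-131982173, minus strand: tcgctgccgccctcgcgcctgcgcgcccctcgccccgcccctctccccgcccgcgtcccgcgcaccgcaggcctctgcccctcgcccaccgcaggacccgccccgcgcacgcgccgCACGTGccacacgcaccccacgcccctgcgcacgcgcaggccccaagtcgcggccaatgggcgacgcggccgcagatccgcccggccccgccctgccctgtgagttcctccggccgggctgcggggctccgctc
ALDOC held matches starting 240, 239 and 28 bases before its start, and BNIP3 134 and 133 bases before it. ACGTG was found in 25.6% of all windows, in 16 of 42 windows of glycolysis genes (38.1%) and in 7 of 16 windows of hypoxia genes (43.8%), and in 23% of the windows of all genes at least 2-fold lower. Such short letters are common, and a match is not a binding site. The sterol regulatory element (TCACNCCAC) was in 1 of 23 windows of the cholesterol list (4.35%) and in 1.06% of all windows. Its share among genes at least 2-fold lower was 1.05%. AP-1 (TGANTCA) was in 9.6% of windows of genes at least 2-fold higher, 6.18% of those lower and 5.05% of all. In the same order the cyclic AMP response element had 0.993%, 2.24% and 2.84%. The interferon-stimulated element had 1.99%, 3.29% and 3%, and the E-box 8.28%, 8.95% and 9.42%.

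**Figure D4:**
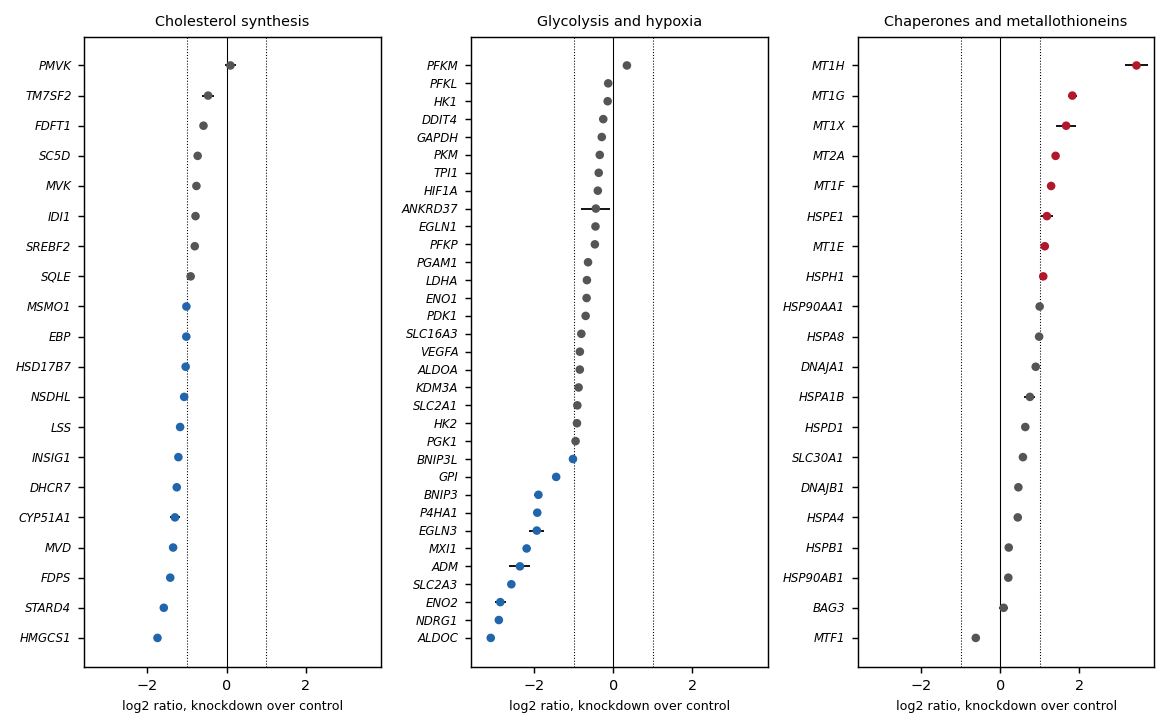
Log2 ratio of the normalized counts, knockdown over control, with the 95% counting interval (horizontal lines) for genes of cholesterol synthesis (20 of its 23), of glycolysis and hypoxia, and of heat shock chaperones and metallothioneins in NOMO-1. In the first 2 panels all but PMVK and PFKM lie left of 0, and in the third all but MTF1 lie right of it; dotted lines mark 2-fold.

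Heat shock chaperones and metallothioneins were higher. Chaperones of the HSP70, HSP90 and HSP60 families fold proteins, and the factor HSF1 raises many of them when unfolded protein accumulates. All 12 chaperones above the minimum were higher in the knockdown library, 2 of them at least 2-fold, beside 2.06% of all genes, with a median of 0.69. The abundant HSPA8, the constitutive HSP70, stood at 44042 in the control and 87201 in the knockdown (log2 ratio 0.99), and HSP90AA1, the inducible HSP90, at 58654 and 117220 (1.00, just short of 2-fold). HSPE1, the lid of the mitochondrial HSP60 chamber, stood at 456 and 1035 (1.18), and HSPD1, that chamber, at 30482 and 47356 (0.64). DNAJA1, a co-chaperone of HSP70, stood at 10209 and 19036 (0.90). HSP90AB1, the constitutive HSP90, stood at 72427 and 83558 (0.21). The strictly stress-induced HSPA6 was under the minimum, at 94.5 and 62, and HSPA1B (660 and 1112, 0.75) is uncertain because HSPA1A is a near-identical copy. The endoplasmic reticulum chaperones did not show the same direction: 10 of 14 were lower, with a median of -0.20, and HSPA5, the HSP70 of that compartment, stood at 30945 and 31368 (0.02).

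Metallothioneins are small cysteine-rich proteins that bind zinc and copper, and the zinc sensor MTF1 raises them. The 6 metallothionein genes above the minimum were all at least 2-fold higher. They lie side by side on chromosome 16 in the annotation when only genes above the minimum are counted. MT2A stood at 1724 in the control and 4556 in the knockdown (log2 ratio 1.40), MT1G at 696 and 2466 (1.82), MT1X at 162 and 515 (1.67), and MT1H at 100 and 1091 (3.43). MT1E and MT1F had log2 ratios of 1.13 and 1.29. These genes are near-identical copies of each other, so how reads were divided among them is uncertain. The zinc exporter SLC30A1, also raised by zinc, stood at 2625 and 3914 (0.58), and MTF1 itself at 1860 and 1214 (-0.61). NQO1, a quinone reductase of the antioxidant response, stood at 219 and 877, 4-fold higher (3.46 to 4.64), while the other NRF2 targets lay between -0.68 and 0.75.

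Promoters of these 2 groups are shown for the same reason, with the heat shock element in capitals in HSPA8 and the metal response element (TGCACNC or TGCGCNC, either strand, where N is any base) in MT2A and MT1X. The metal element was added to the search after the metallothionein values had been seen.
HSPA8, chr11:123062137-123062386, minus strand: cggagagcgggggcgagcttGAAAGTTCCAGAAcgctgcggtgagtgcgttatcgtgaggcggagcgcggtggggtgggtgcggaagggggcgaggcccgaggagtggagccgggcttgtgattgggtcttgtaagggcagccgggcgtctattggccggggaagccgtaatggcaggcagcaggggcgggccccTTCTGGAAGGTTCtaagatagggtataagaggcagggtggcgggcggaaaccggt
MT2A, chr16:56608334-56608583, plus strand: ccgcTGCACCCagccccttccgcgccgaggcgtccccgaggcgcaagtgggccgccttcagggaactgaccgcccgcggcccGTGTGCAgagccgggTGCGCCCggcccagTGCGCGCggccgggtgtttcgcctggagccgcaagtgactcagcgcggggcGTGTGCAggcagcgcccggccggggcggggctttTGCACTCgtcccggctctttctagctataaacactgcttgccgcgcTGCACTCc
MT1X, chr16:56682220-56682469, plus strand: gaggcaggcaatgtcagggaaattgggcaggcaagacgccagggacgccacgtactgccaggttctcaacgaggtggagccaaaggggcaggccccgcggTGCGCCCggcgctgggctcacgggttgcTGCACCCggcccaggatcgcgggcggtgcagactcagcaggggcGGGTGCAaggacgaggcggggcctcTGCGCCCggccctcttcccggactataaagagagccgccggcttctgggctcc
HSPA8 had 2 heat shock elements, 230 and 55 bases before its start. The strict form searched was found in 0.33% of all windows and in 5 of 18 windows of the chaperone list (27.8%). MT2A had 7 metal elements before its start and MT1X had 4. This motif was found in 4 of the 5 metallothionein list windows (80%), but also in 36.9% of all windows.

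Genes that respond to growth signals and inflammation were mostly lower. The MAP kinase pathway, which NCAM1 can feed through growth factor receptors, raises its own inhibitors and a set of transcription factors, and their levels are commonly read as its output. Of 16 such genes 15 were lower, 4 of them 2-fold or more, and the list median was -0.67. DUSP8, a phosphatase of stress-activated kinases, stood at 229 in the control and 30.1 in the knockdown (log2 ratio -2.88). IER3 stood at 156 and 42 (-1.87), PHLDA1 at 843 and 363 (-1.21), and DUSP5, a phosphatase of ERK in the nucleus, at 259 and 115 (-1.16). The ERK feedback genes DUSP6, SPRY4 and ETV5 had log2 ratios of -0.47, -0.64 and -0.69, and ETV1 was the 1 member that was higher (154 and 201, 0.38).

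Immediate early factors, which switch on within minutes of a signal, had a median of -0.79, with 17 of 18 lower, 7 of them 2-fold or more. EGR1 stood at 644 in the control and 158 in the knockdown (log2 ratio -2.02), EGR3 at 152 and 37.4 (-1.99), the small MAF protein MAFF at 383 and 108 (-1.82), and the orphan nuclear receptor NR4A1 at 352 and 147 (-1.26). JUN stood at 1566 and 767 (-1.03), while its partner FOS stood at 1090 and 952 (-0.19). The EGR1 promoter is shown because it was the 1 window of 19 for this list with the CArG box, to which serum response factor binds, in capitals. That motif was found in 1.12% of all windows.
EGR1, chr5:138465229-138465478, plus strand: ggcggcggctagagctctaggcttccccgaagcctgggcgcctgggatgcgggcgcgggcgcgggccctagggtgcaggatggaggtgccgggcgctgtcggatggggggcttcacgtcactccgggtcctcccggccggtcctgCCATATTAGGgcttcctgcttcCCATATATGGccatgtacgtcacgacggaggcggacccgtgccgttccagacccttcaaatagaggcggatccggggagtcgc

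NF-kB targets had 17 of 24 members lower, 6 of them 2-fold or more, and a median of -0.67. NF-kB is the main transcription factor of inflammatory activation in monocytes, and many of its targets restrain it or protect cells from death. TRAF1, a signalling adaptor, stood at 1357 in the control and 360 in the knockdown (log2 ratio -1.91), BCL2A1, an anti-apoptotic protein, at 950 and 343 (-1.47), and PTGS2, the inducible cyclooxygenase, at 314 and 115 (-1.44). The subunit NFKB2 stood at 1985 and 805 (-1.30), and the inhibitors TNFAIP3 and TNIP1 each had -1.09. The main subunits RELA and NFKB1 differed less (-0.33 and -0.42). On the other side were NFKBIZ at 623 and 1201 (0.94) and NFKBIB at 434 and 668 (0.62). The NF-kB motif was in 8 of 38 windows of this list (21.1%) and in 0.541% of all windows.

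Secreted signals mostly followed the same direction. Of 9 chemokines above the minimum 8 were lower, 3 of them at least 2-fold. The list median was -0.91, and it was -1.58 with a minimum of 500 counts. CXCL10, counted among the 8, was near equal at 435 in the control and 420 in the knockdown (-0.053). IL8 (CXCL8), which attracts neutrophils, stood at 8995 in the control and 3115 in the knockdown (log2 ratio -1.53), CCL5, which attracts T cells and monocytes, at 9473 and 3063 (-1.63), and CCL20 at 605 and 118 (-2.35). CCL2, the main attractant of monocytes, stood at 130 and 294 (1.17). Of 13 outputs and members of JAK-STAT signalling 10 were lower, with a median of -0.71: the feedback inhibitor SOCS1 stood at 117 and 30.1 (-1.93), the cytokine OSM at 137 and 62.9 (-1.11), STAT5A at 1086 and 515 (-1.07) and the kinase PIM2 at 1525 and 742 (-1.04), whereas PIM1 stood at 1146 and 2127 (0.89). Interferon response genes did not share this pattern. Of 17, 10 were higher and none was past 2-fold in either direction, with a median of 0.13, and RSAD2 (viperin) stood at 245 and 473 (0.95).

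Myeloid granule genes were lower, whereas monocyte surface receptors were split. Primary granules hold the microbicidal enzymes that promyelocytes make, and 8 of 10 such genes were lower, 5 of them at least 2-fold, with a median of -0.98. BPI, which binds bacterial endotoxin, stood at 10622 in the control and 1957 in the knockdown (log2 ratio -2.44), the protease inhibitor CST7 at 769 and 210 (-1.87), and PRTN3 (proteinase 3) and AZU1 (azurocidin) at -1.50 and -1.18. CTSG (cathepsin G), a protease of the same granules, was near equal at 8565 and 9015 (0.074), and lysozyme LYZ was higher, at 9581 and 14103 (0.56). The 5 mast cell and basophil markers summed to 388 in the control and 122 in the knockdown. CPA3 stood at 159 and 37.4, TPSAB1, which shares reads with the near-identical TPSB2, at 124 and 31, and HDC at 87.8 and 36.5, while MS4A2 stood at 16.1 and 16.4 and FCER1A at 1.89 and 0.912. Their part in the granule result was not tested.

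Of 26 monocyte surface and recognition genes 8 were at least 2-fold higher and 6 at least 2-fold lower, so that the median, -0.076, hides differences in both directions. Higher were the scavenger receptor MSR1, at 46.3 in the control and 153 in the knockdown (log2 ratio 1.71), the inhibitory receptors LILRB1, LILRB2 and LILRB4 (1.38, 1.28 and 1.07), the costimulatory ligand CD86, at 667 and 1670 (1.32), and TLR8, a sensor of RNA, at 791 and 1799 (1.19), besides CLEC7A and CD36. Lower were TREM1, an amplifier of inflammation, at 186 and 30.1 (-2.59), the Fc receptor FCGR2B, at 2752 and 840 (-1.71), the integrin ITGAX (CD11c), at 11454 and 3839 (-1.58), the growth factor receptor CSF1R, at 513 and 194 (-1.40), FCGR3A (-1.35), which has the near-identical copy FCGR3B, and TLR2 (-1.04). The S100 proteins, which include the abundant S100A8 and S100A9 (0.11 and -0.12), and the MHC class II genes, with HLA-DRA at 17209 and 15675 (-0.13), had no member past 2-fold. HLA genes are uncertain in themselves, since their alleles differ from the reference. NCF1, a subunit of the phagocyte oxidase with near-identical pseudogenes, stood at 6599 and 2262 (-1.54), and the catalytic subunit CYBB at 11586 and 14584 (0.33).

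Regulators of myeloid identity were mostly lower, and the leukemic homeobox genes were higher by small amounts. Of 14 myeloid transcription factors 12 were lower, 2 of them at least 2-fold, with a median of -0.56. SPI1 (PU.1) stood at 7522 in the control and 5122 in the knockdown (log2 ratio -0.55), MYB at 17281 and 12016 (-0.52), GFI1 at 6725 and 3592 (-0.90), GATA2 at 3382 and 1412 (-1.26) and GATA1 at 208 and 100 (-1.04). Of 9 HOXA genes and partners 8 were higher, none of them 2-fold, with a median of 0.44. HOXA9, which KMT2A fusions keep active, stood at 2425 and 3712 (0.61), HOXA5 at 410 and 752 (0.87), and its cofactor MEIS1 was the exception at 2176 and 1715 (-0.34). Among growth factor receptors of progenitors, KIT stood at 508 and 1325 (1.38) and FLT3 at 2787 and 1348 (-1.05). The stem cell antigen CD34 was under the minimum, at 7.56 and 1.82.

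Genes of growth and division mostly differed by less than 2-fold. Of 20 genes of MYC output and ribosome biogenesis 18 were higher, 1 of them at least 2-fold (5%, beside 2.06% of all genes), with a median of 0.44. NOP56 stood at 8116 in the control and 12572 in the knockdown (log2 ratio 0.63), RRS1 at 943 and 1685 (0.84), and MYC itself at 12127 and 9599 (-0.34). Ribosomal protein genes lay in a narrow band, with 23 of 24 higher, none past 2-fold, and a median of 0.18. Replication and mitosis genes had medians of 0.018 and -0.041 and no member past 2-fold. MCM3 stood at 14513 and 14512, TOP2A at 30577 and 30612, and MKI67, the Ki-67 antigen, at 20453 and 13204 (-0.63). Nuclear respiratory chain genes had a median of 0.17, and mitochondrially encoded ones of -0.096.

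Genes of cell survival and of drug handling differed one by one rather than as groups. BCL2, the target of venetoclax, stood at 10367 in the control and 4256 in the knockdown (log2 ratio -1.28), and BCL2A1 was lower too, as given above, while MCL1 stood at 11022 and 8068 (-0.45) and BCL2L1 at 974 and 1202 (0.30). The pro-apoptotic PMAIP1 (NOXA) stood at 975 and 1490 (0.61), and BBC3 (PUMA) at 670 and 419 (-0.68). The list median of the BCL2 family was 0.16. No p53 target was past 2-fold: CDKN1A stood at 1606 and 1158 (-0.47) and MDM2 at 3468 and 2942 (-0.24). For cytarabine, CDA, which inactivates it, stood at 1364 and 520 (-1.39), SAMHD1, which hydrolyses its active form, at 5569 and 10970 (0.98), DCK, which activates it, at 3239 and 3353 (0.05), and the transporter SLC29A1 at 4126 and 4380 (0.086). AKR1C3, a reductase that acts on anthracyclines, stood at 469 and 208 (-1.17). The efflux pump genes ABCB1 and ABCG2 were under the minimum in both libraries. Among adhesion genes, the integrin ITGA5 stood at 7307 and 2814 (-1.38) and the homing receptor CXCR4 at 4234 and 2191 (-0.95).

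Several differing genes lie beside each other in the annotation, among genes above the minimum. The longest run held 7 genes of chromosome 1, CD55, CR2, CR1, CD46, C1orf132, LAMB3 and HSD11B1, all at least 2-fold lower; the first 4 bind or control complement. The metallothionein run of 6 came next, with a run of 6 lower genes on chromosome 21, PCBP3, COL6A1, COL6A2, FTCD, SPATC1L and the sterol enzyme LSS. Runs of 3 included the granule genes AZU1, PRTN3 and CFD on chromosome 19, LPO, MPO and BZRAP1 (now TSPOAP1) on chromosome 17, and ATP2B3, PNCK and SLC6A8 on chromosome X, all lower. How many such runs would be found among genes in another order was not examined. Neighbouring and antisense genes can share reads, because the sources used here give no strand setting for the counting.

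Transcript length and base composition moved with the ratio. Among protein-coding genes the median log2 ratio went from 0.15 in the fifth with the shortest transcripts to -0.14 in the fifth with the longest. The share at least 2-fold lower went from 2.64% in the fifth with the least GC to 8.1% in that with the most. After a correction of the ratios for both, the medians were -1.03 for cholesterol synthesis, -0.93 for hypoxia, -0.67 for glycolysis, 0.68 for heat shock chaperones, 1.31 for metallothioneins, 0.12 for ribosomal proteins and -0.51 for fatty acid synthesis. That of MYC and ribosome biogenesis genes went from 0.44 to 0.54. With this correction 3 lists had a median at or above 0.5 and 13 at or below -0.5. Of 327 antisense RNAs 3.06% were at least 2-fold higher and 11.9% at least 2-fold lower, and of 241 long intergenic RNAs 4.56% and 10.8%. The shares were 2.06% and 5.66% of all genes, and 7.67% and 12.8% of the genes with a mean count under 200. The last 2 are partly set by the selection, as described above, so they are no neutral yardstick.

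The last comparison asked how these genes stood in the other lines, which share no library with NOMO-1. Among 11411 genes above the minimum in all 3 lines, NOMO-1 had 132 genes at least 2-fold higher (1.16%) and 434 lower (3.8%). MOLM-14 had 47 higher (0.412%) and 95 lower (0.833%), and SKM-1 had 1187 higher (10.4%) and 1428 lower (12.5%). The NCAM1 difference itself was 1163 to 312 in NOMO-1, 6004 to 1896 in MOLM-14 (log2 ratio -1.66) and 12537 to 101 in SKM-1 (-6.94). Of the 434 genes lower in NOMO-1, 34 were also at least 2-fold lower in MOLM-14, which is 7.83% of the NOMO-1 list and 35.8% of the MOLM-14 list, and 5 were at least 2-fold higher there. In SKM-1, 162 were lower as well (37.3% and 11.3%), and 75 (17.3%) were at least 2-fold higher. Of the 132 genes higher in NOMO-1, 5 were also higher in MOLM-14 (3.79% and 10.6%) and 56 in SKM-1 (42.4% and 4.72%), while 6 and 18 were at least 2-fold lower there. Across the 11411 genes, which are not independent replicates and were scaled in 1 table, the log2 ratios of NOMO-1 correlated with those of MOLM-14 at 0.307 (Pearson) and 0.36 (Spearman), and with those of SKM-1 at 0.159 and 0.127.

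Few genes were past 2-fold in the same direction in all 3 lines. On the lower side there were 8, among them NCAM1 itself, SLC6A8 (log2 ratios of -3.20 in NOMO-1, -1.44 in MOLM-14 and -2.27 in SKM-1), ENO2 (-2.85, -1.04 and -3.14), the netrin-related NTNG2 (-1.16, -1.12 and -3.62), the transcription factor TSHZ3 (-1.07, -1.05 and -1.58), CECR6 (now TMEM121B) and the pseudogene ANKRD18DP. On the higher side there were ADAM28 (3.01, 1.32 and 3.21) and RASGRP3, an activator of RAS (1.49, 1.13 and 4.91). These genes were named because they met this criterion, after their values had been seen. HMGCS1 was as low in MOLM-14 (-1.80) as in NOMO-1 (-1.75) but near equal in SKM-1 (-0.23), and HSPH1 was higher in each, at 1.09, 0.41 and 0.91. For the other extremes of NOMO-1 the lines often differed or could not be compared. SEMA5B, POU2AF1, ARG1, HCAR2, PAEP, STC1 and DEFB1 were under the minimum in both libraries of MOLM-14 and of SKM-1. The same held for GIMAP4, MS4A1, MT1H, ALDH1L1, GPR82 and GABRA3.

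**Figure D5:**
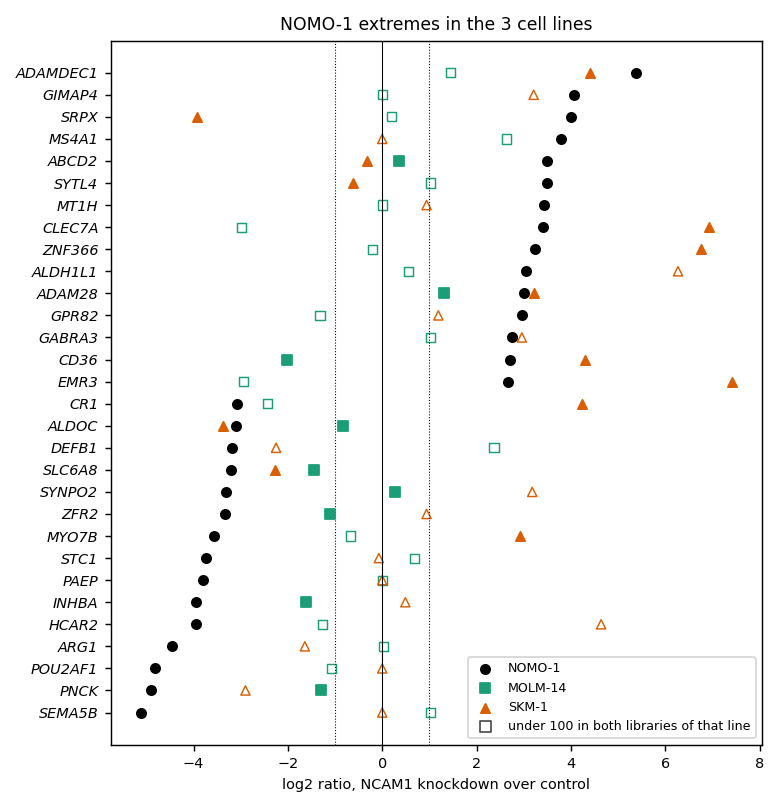
Log2 ratio of knockdown over control (horizontal axis) in NOMO-1 (circles), MOLM-14 (squares) and SKM-1 (triangles) for the 15 highest and 15 lowest protein-coding genes of NOMO-1. Open symbols mark lines in which the gene was under 100 normalized counts in both libraries; ADAM28 and SLC6A8 are past 2-fold in the same direction in all 3 lines, and SRPX and CR1 lie on opposite sides in NOMO-1 and SKM-1.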

How the data were processed

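RNA libraries (Illumina TruSeq RNA v2, paired 100 bp reads) were made from NOMO-1, MOLM-14 and SKM-1 cells, with 1 library per line and shRNA, per the labels' protocols and the series' design text. The authors deposited signal values, which are read counts per gene scaled by a size factor for each library. They also deposited log2 values, a transformation of unstated kind, which served only as an alternative. The submitters' processing notes name hg19, bcl2fastq 1.8.4, STAR, HTSeq 0.6.1p1 and DESeq2 1.12.4. The strand setting and the annotation of the counting were not given in the sources used here.

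Each column was divided by its smallest value above 0, and 100% of the results were whole reads within 0.001, with a depth of 45542099 and 45360397 reads in NOMO-1. Ratios are log2((knockdown + 1)/(control + 1)) on normalized counts, which understates the difference of low genes. Exact conditional (Clopper-Pearson) 95% intervals came from the recovered reads (scipy 1.17.1) and cover counting error only. Because NOMO-1 has 1 library per condition, no test was possible, no count model was run, and at least 2-fold stands in for a call. The ratio step was tested on simulated data. Gene types, transcript length and GC content came from an annotation of GRCh38, matched by gene identifier or symbol, and length was known for 98.2% of the genes; no coordinates of the files were converted. Length and GC were corrected by lowess (span 0.3, statsmodels 0.14.6), and TMM factors came from edgeR 4.0.16. Other tools were Python 3.11.15, pandas 2.3.3, matplotlib 3.10.9 and R 4.3.3.

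The genes described, the gene lists and the markers were chosen with earlier results of these data known. The naming rule took NCAM1, the 15 highest and 15 lowest protein-coding ratios, the 6 largest differences in count in each direction among genes at least 2-fold apart, up to 6 members per list by size of the ratio, and further list members a reader needs, such as abundant ones. Y-linked genes, X-inactivation transcripts, pseudogenes and genes with clone-type names were passed over by that rule; those in the text, named as values at the edge of the selection or as genes shared by all 3 lines, stand outside it. A few genes are not reported here. Alternatives were pseudocounts of 0.5 and 8, total-read, TMM and median scaling, the authors' transformed values, minimums of 50, 500 and none, folds of 1.5 and 4, intervals wholly past 2-fold, protein-coding genes alone, and the length and GC correction, which was added after the data had been seen.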

Additional observations from a re-analysis of the deposited data

Results flagged for a closer look

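For some genes and lists the difference in NOMO-1 lay on the opposite side in another line. Each line has 1 library per condition, so these differences between lines were not tested. MYO7B had a log2 ratio of -3.56 in NOMO-1 and 2.92 in SKM-1, and CR1 had -3.07 and 4.23. SRPX had 4.01 in NOMO-1 and -3.93 in SKM-1. CD36 had 2.71 in NOMO-1 and -2.02 in MOLM-14, and MPO had -1.77 in NOMO-1 and 1.49 in MOLM-14.

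The signalling lists stood lower in NOMO-1 and higher in SKM-1. Their median log2 ratios in NOMO-1 and SKM-1 were -0.67 and 0.63 for MAP kinase output, -0.79 and 0.99 for immediate early factors, -0.67 and 1.87 for NF-kB targets, -0.91 and 2.63 for chemokines, and -0.71 and 0.91 for JAK-STAT outputs. Metallothioneins stood the other way, at 1.34 in NOMO-1 and -0.61 in SKM-1. In MOLM-14 the medians of these lists were -0.52, -0.69, -0.18, -0.82, -0.29 and 0.79 in turn, on the same side as in NOMO-1. All these medians cover the members above the minimum in NOMO-1, and no minimum was set in the other line. Some members were thus near 0 there, such as CXCL1 at 1.12 and 0 in MOLM-14 and CXCL10 at 2.03 and 2.75 in SKM-1. Of the 8 metallothionein list members 4 were lower in SKM-1, where MT1H stood at 0 and 0.918.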

How the results depend on the processing

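The number of genes at least 2-fold higher, 273, became 139 with the authors' transformed values, 111 with a minimum of 500 counts, 2621 with no minimum, 1136 at 1.5-fold, 45 at 4-fold and 158 where the interval had to lie wholly past 2-fold. The 751 lower genes became 455, 442, 3755, 1882 and 115 under the first 5 of these. Other scalings, pseudocounts, a minimum of 50, protein-coding genes alone and the length and GC correction kept both counts within 1.5 times, at 228 to 403 higher and 612 to 955 lower. The share of these genes that was higher was 26.7%, and it was 41.1% with no minimum, 37.6% at 1.5-fold and 33.1% with total-read scaling, which moved the median of all genes to 0.056. NCAM1 went from -1.89 to -1.67 with the transformed values, and the cause was not tested. Of 370 recomputed list medians 51 moved by more than the median interval width to each side of their single members. A list median has no interval of its own here. There were 3 that changed sign: replication histones from -0.48 to 0.31 with a minimum of 500, and mitosis genes from -0.041 to 0.015 and S100 proteins from -0.011 to 0.045 with total-read scaling. Of 294 recomputed log2 ratios of named genes, NCAM1 aside, 55 moved by more than the gene's interval width to each side. With the transformed values ADAMDEC1 went from 5.39 to 3.19, ARG1 from -4.46 to -3.01 and PNCK from -4.91 to -3.56. SEMA5B (-5.12 to -5.07) and MT1H (3.43 to 3.62) differed less. None of the 43 genes recomputed changed sign, but total-read scaling turned the sign of 621 of all 13278 genes, which lay near 0, such as FGFR2 (-0.043 to 0.013). Medians of LXR genes and chemokines with a minimum of 500 stand beside their lists, and that of stem and progenitor genes went from -0.32 to -0.61 with no minimum. Genes near 100 counts have intervals with a median of 0.37 to each side on the log2 scale. For many of those near 2-fold, this depth does not resolve whether the ratio lies past 2-fold. No paired analysis was possible because NOMO-1 has 1 library per condition, and no replicate could be left out for the same reason.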

Other observations

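The genes named here were chosen after their values had been seen, and they are described as values only. GBE1, the glycogen branching enzyme, stood at 15547 in the control and 3126 in the NOMO-1 knockdown library (log2 ratio -2.31), GYS1, the glycogen synthase, at 6067 and 1851 (-1.71), and PYGL, a glycogen phosphorylase, at 30573 and 14508 (-1.08). PGM1, which links glycogen to glycolysis, stood at 4508 and 2129 (-1.08), while UGP2 differed less, at 5425 and 5040 (-0.11). In SKM-1 the log2 ratios of GBE1, GYS1, PYGL, PGM1 and UGP2 were -1.96, -1.89, -0.29, -2.15 and 0.32, and in MOLM-14 they were -0.58, -0.59, -0.27, -0.45 and 0.15. The kinases that set fructose 2,6-bisphosphate, an activator of glycolysis, were not alike. PFKFB4 stood at 8287 and 1204 (-2.78) and PFKFB2 at 273 and 42.9 (-2.64), whereas PFKFB3 stood at 2038 and 2205 (0.11). MIR210HG, the host transcript of a hypoxia-linked microRNA, stood at 1151 and 220 (-2.38); the microRNA itself was not measured here.

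Genes that bind or control complement lay on both sides. CR2 (CD21) stood at 1690 in the control and 243 in the knockdown (log2 ratio -2.79), CD55 at 4445 and 1838 (-1.27), and CD46 at 18948 and 8829 (-1.10). These lie in the chromosome 1 run with CR1. CD59, which protects cells from the membrane attack complex and lies elsewhere, stood at 2061 and 3346 (0.70). CFD, complement factor D, stood at 3351 and 1614 (-1.05). In SKM-1 the log2 ratios of CR2, CD55 and CD46 were 2.24, 1.13 and 0.61. Of chaperones outside the heat shock list, the chaperonin subunits CCT2, CCT3, CCT5 and TCP1 had log2 ratios of 0.65, 0.74, 0.53 and 0.62, the HSP90 co-chaperone STIP1 0.59, AHSA1 0.57 and CHORDC1, past 2-fold, 1.04.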
